A study of Mus musculus with 3 samples.

Results

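Innate immune cells recognise microbes and antibody-coated particles through germline-encoded receptors, and 97 genes of these receptor families and their partners were followed here in mouse kidney RNA. They were chosen by gene symbol: every gene with a probe set of a single platform symbol beginning with Tlr and a number, Clec and a number, Fcgr, Ms4a and a number, Cd300, Siglec, Lilr, Pilr, Trem, or Nlrp and a number, together with Fcer1g, Cd14, Ly86, Ly96 and Myd88, and without the B cell gene Ms4a1. The 97 genes had 136 probe sets, of 18193 genes with a single-symbol probe set on the array. No Lilr gene had a probe set of its own symbol alone, and 3 further probe sets that name a receptor of these families beside another gene were left out.

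The kidneys came from C57BL/6 mice, 2 acetate-fed and 1 control, with 1 Affymetrix array for each mouse. Acetate, a short-chain fatty acid, was given to the acetate-fed mice through the drinking water at 200 mM; dosing began at 3 weeks of age and lasted 6 weeks. Neither the sex of the mice nor what the control mouse drank is given in the sources used here. All values are the deposited log2 expression values, in which a difference of 1 is a 2-fold change. With 1 control array the control has no spread of its own, both differences share that array, and an exact permutation test of 2 arrays against 1 cannot give a p below 0.333, so sizes are given for each mouse.

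Toll-like receptors and Cd14 sense microbial products and signal through adaptors such as Myd88. Receptors for the Fc part of immunoglobulin G bind immune complexes; the activating ones signal through the shared gamma chain encoded by Fcer1g, and Fcgr2b inhibits. C-type lectin receptors bind sugars of fungi, bacteria and damaged cells, and several pair with the same gamma chain. Kidney macrophages carry many of these receptors, whereas tubular epithelium and endothelium carry a few, such as Fcgrt and Clec14a.

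Several myeloid Fc receptor, Ms4a and lectin genes stood above the control in each acetate-fed kidney, and were higher in acetate-fed mouse 1 than in mouse 2. Clec2h and Tlr12 were lower in both. Of the 97 genes, 4 were at least 2-fold higher in both acetate-fed mice (Ms4a7, Ms4a6b, Ms4a6d and Fcgr4) and 0 at least 2-fold lower, against a background of 0.302% higher and 0.363% lower among all 18193 genes without a filter. At any size, 39 of the 97 were higher in both mice (22.5% of all genes) and 7 lower in both (27.3% of all genes), and 26 had the same value on all 3 arrays (25.1% of all genes). At 1.5-fold, 11 were higher in both (background 1.31%) and 2 lower in both (background 1.28%). A gene was represented by its probe set with the highest mean. In RNA of whole kidney, more cells of a type and more RNA per cell cannot be told apart.

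For testing, probe sets in the upper 60% by mean were kept, with means of at least 4.21, and 56 of the 97 genes passed. At least 2-fold higher in both mice were 4 of the 56, against 0.408% of the 13473 tested genes, and 0 were at least 2-fold lower, against 0.46%. Higher in both mice at any size were 29 of the 56 against 26% of tested genes, and 5 were lower in both against 30.9%. At 1.5-fold in both mice, 10 were higher (background 1.75%) and 2 lower (background 1.6%). The difference exceeded the gap between the acetate-fed mice for 20 genes higher in both (background 17.1%) and for 5 lower in both (background 21.5%). The acetate-fed values were exactly tied for 10 of the 56 (background 29.9%), and 7 had the same value on all 3 arrays (background 17.9%). The median difference of the 56 was 0.18 in mouse 1 and 0.09 in mouse 2, beside 0 and 0 over all tested genes; over all 97 genes without the filter it was 0.014 in mouse 1 and 0 in mouse 2, and over the 24 genes in the upper 40% of probe sets 0.062 in mouse 1 and 0.094 in mouse 2. Of these 56, 6 had a control value below the lowest tested mean (Clec4a2, Clec4n, Ms4a4b, Ms4a6d, Siglecg and Trem3) and so passed through the acetate-fed arrays, which makes the counts over tested genes a description and no support. The tested representatives of Clec4n, Ms4a4c, Ms4a6d, Tlr3 and Trem2 are probe sets whose design name marks probes shared with other transcripts.

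**Figure D1:**
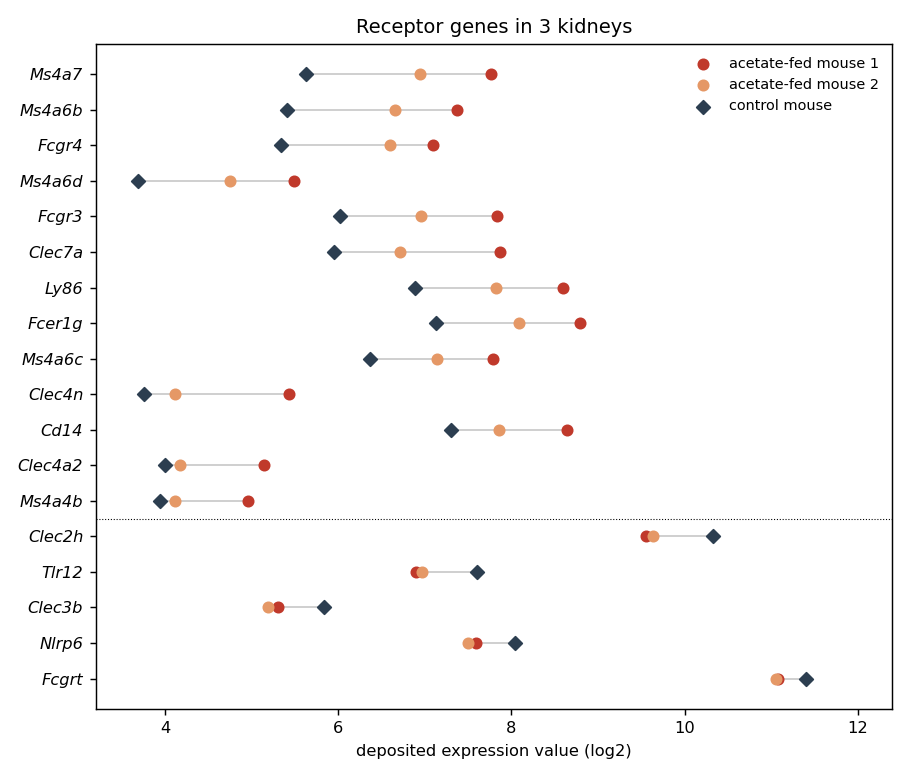
Deposited log2 expression (horizontal axis) of the 13 tested genes at least 2-fold higher in acetate-fed mouse 1 than in the control (above the dotted line) and the 5 lower in both acetate-fed mice (below it), 1 point per kidney, with grey lines joining the 3 arrays. The choice of genes places the control below acetate-fed mouse 1 in the 13 upper genes and makes it the highest point in the 5 lower genes. In the 13 upper genes acetate-fed mouse 2 also lies above the control and below mouse 1.

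The activating Fc receptors and their signalling chain came first among the Fc receptor genes. Fcgr4, an activating low-affinity receptor of mouse monocytes, macrophages and neutrophils, had 7.09 in acetate-fed mouse 1 and 6.59 in acetate-fed mouse 2, against 5.34 in the control. Both acetate-fed kidneys were above the control, 3.37-fold and 2.39-fold, and the smaller difference of 1.25 exceeded the gap of 0.50 between the acetate-fed pair. Fcgr3, the low-affinity activating receptor, had 7.84 and 6.96 in acetate-fed mice 1 and 2 against 6.03 in the control, which is 3.51-fold and 1.91-fold higher.

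Fcer1g, the gamma chain through which Fcgr1, Fcgr3 and Fcgr4 signal, had 8.79 and 8.09 in acetate-fed mice 1 and 2 against 7.12 in the control, 3.18-fold and 1.95-fold higher. Its smaller difference of 0.97 also exceeded the gap of 0.70 between the mice. Fcgr1, the high-affinity receptor, gave different answers by probe set. Its brighter probe set had 5.95 and 5.97 in acetate-fed mice 1 and 2 and 5.95 in the control, and its dimmer tested one 5.30 and 4.64 against 4.14, 2.23-fold and 1.42-fold higher.

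The inhibitory Fcgr2b was not higher in both mice. Its brightest probe set had 9.38 in acetate-fed mouse 1 and 8.98 in mouse 2 against 9.35 in the control, a difference of 0.04 in mouse 1 and -0.36 in mouse 2. The other 3 tested Fcgr2b probe sets differed by between -0.20 and 0.02 in mouse 1 and between -0.51 and -0.28 in mouse 2, so mouse 2 was below the control on all 4 probe sets and mouse 1 on 2 of them. Fcgrt encodes the neonatal Fc receptor, which recycles immunoglobulin G and albumin in epithelium and endothelium. It had 11.08 and 11.05 in acetate-fed mice 1 and 2 against 11.41 in the control, 1.25-fold and 1.28-fold lower, with a gap of 0.03 between the mice.

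The start regions of Fcgr4 and Fcgr3 are shown because, of the members on chromosome 1, these 2 come just before Fcer1g in gene order and all 3 were higher in both mice. Each is RefSeq sequence of build GRCm38.p6 running from 250 bases before the annotated start to 50 bases after it, and capitals mark GAGGAA on either strand (TTCCTC when read on the other strand), the core letters recognised by the myeloid transcription factor PU.1. Fcgr4 lies at chr1:171018676-171018975, plus strand, and Fcgr3 at chr1:171059354-171059653, minus strand, for the first of its 2 entries.
Fcgr4: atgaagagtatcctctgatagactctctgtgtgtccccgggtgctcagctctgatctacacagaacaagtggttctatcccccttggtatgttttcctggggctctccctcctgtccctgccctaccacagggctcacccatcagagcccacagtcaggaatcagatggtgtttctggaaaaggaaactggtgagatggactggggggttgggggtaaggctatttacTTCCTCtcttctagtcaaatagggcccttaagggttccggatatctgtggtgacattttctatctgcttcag
Fcgr3: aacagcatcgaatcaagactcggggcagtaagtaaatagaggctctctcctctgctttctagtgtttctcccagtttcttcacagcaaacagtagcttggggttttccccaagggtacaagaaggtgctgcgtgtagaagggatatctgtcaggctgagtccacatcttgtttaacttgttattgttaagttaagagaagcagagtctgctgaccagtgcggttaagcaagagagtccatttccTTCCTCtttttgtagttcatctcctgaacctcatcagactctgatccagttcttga
The capitals begin 22 bases before the Fcgr4 start and 6 bases before the Fcgr3 start, while the Fcer1g window holds no GAGGAA. The longer GAGGAAGT, which overlaps GAGGAA, occurred in the Fcgr4 window, and in 3.2% of all 32851 start regions in the table.

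The Ms4a family encodes membrane proteins that span the membrane repeatedly, and Ms4a7 and Ms4a6b had the largest mean differences among the 56 tested genes. Ms4a7, a macrophage gene, had 7.76 in acetate-fed mouse 1 and 6.95 in mouse 2, against 5.63 in the control, 4.36-fold and 2.48-fold higher. By mean difference it ranked 19 of 13473 tested genes. Ms4a6b had 7.37 and 6.66 in acetate-fed mice 1 and 2 against 5.40 in the control, 3.91-fold and 2.38-fold higher.

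Ms4a6d had 5.49 and 4.75 in acetate-fed mice 1 and 2 against 3.69 in the control, 3.48-fold and 2.08-fold higher. A second Ms4a6d probe set below the filter had 4.17 and 3.25 against 2.49, and another had 2.30 and 2.34 against 2.40. Ms4a6c had 7.79 and 7.14 in acetate-fed mice 1 and 2 against 6.37 in the control, 2.69-fold and 1.70-fold higher. For these 4 genes the control lay below both acetate-fed kidneys by more than the gap between the acetate-fed pair. Ms4a7, Ms4a6b and Ms4a6c each had another probe set below the filter that differed by at most 0.15 from the control, and Ms4a6b, Ms4a6c and Ms4a6d are close relatives in sequence, so transcripts of one could reach probes of another.

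Other Ms4a genes differed less or in 1 mouse. Ms4a4b, known from T cells, had 4.96 and 4.12 in acetate-fed mice 1 and 2 against 3.94 in the control, 2.03-fold and 1.13-fold higher. A second Ms4a4b probe set, below the filter, had 3.15 on all 3 arrays. Ms4a4c was 1.45-fold and 1.32-fold higher. Ms4a2, the beta chain of the mast cell and basophil receptor for immunoglobulin E, had 4.24 and 4.27 in acetate-fed mice 1 and 2 and 4.24 in the control, and Ms4a15 had 6.46 on all 3 arrays. The 8 Ms4a genes below the filter were Ms4a3, Ms4a4d, Ms4a8a, Ms4a10, Ms4a13, Ms4a18, Ms4a19 and Ms4a20.

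All 16 Ms4a genes lie on chromosome 19, and in RefSeq gene order the 6 that were higher in both mice fell within 1 run of 7 member genes, from Ms4a7 through Ms4a4c, Ms4a4b, Ms4a6c and Ms4a6b to Ms4a6d, with the untested Ms4a4d between the last pair. The start regions of Ms4a7, Ms4a6b and Ms4a6c are shown because they lie in that run and were all higher in both mice. In GRCm38.p6 they lie at chr19:11336097-11336396, minus strand (the first of 2 entries), chr19:11518309-11518608, plus strand, and chr19:11469118-11469417, plus strand, with capitals as above.
Ms4a7: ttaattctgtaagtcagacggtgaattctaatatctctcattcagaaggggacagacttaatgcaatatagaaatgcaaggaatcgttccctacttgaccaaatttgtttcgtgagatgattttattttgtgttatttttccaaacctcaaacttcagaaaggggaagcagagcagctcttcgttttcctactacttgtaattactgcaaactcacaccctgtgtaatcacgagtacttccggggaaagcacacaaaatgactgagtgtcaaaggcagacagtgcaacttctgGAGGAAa
Ms4a6b: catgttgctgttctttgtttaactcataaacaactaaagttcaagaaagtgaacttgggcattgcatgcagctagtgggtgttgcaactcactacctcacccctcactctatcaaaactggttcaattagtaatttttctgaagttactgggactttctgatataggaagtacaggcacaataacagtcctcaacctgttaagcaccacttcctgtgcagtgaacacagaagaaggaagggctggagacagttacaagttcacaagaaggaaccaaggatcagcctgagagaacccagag
Ms4a6c: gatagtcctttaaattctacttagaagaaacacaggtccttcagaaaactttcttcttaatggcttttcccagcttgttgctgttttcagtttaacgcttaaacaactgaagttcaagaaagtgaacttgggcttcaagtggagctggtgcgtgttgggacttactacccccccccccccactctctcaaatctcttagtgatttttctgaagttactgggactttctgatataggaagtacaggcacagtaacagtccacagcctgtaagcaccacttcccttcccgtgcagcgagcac
The capitals begin 43 bases after the Ms4a7 start in the first entry. The second Ms4a7 entry (chr19:11334646-11334945) and the Ms4a6b and Ms4a6c windows hold no GAGGAA. The Ms4a6b and Ms4a6c windows share an unbroken run of 48 bases, which begins 118 bases before the Ms4a6b start and 49 bases before the Ms4a6c start. No start region of Ms4a6d was matched in the table.

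**Figure D2:**
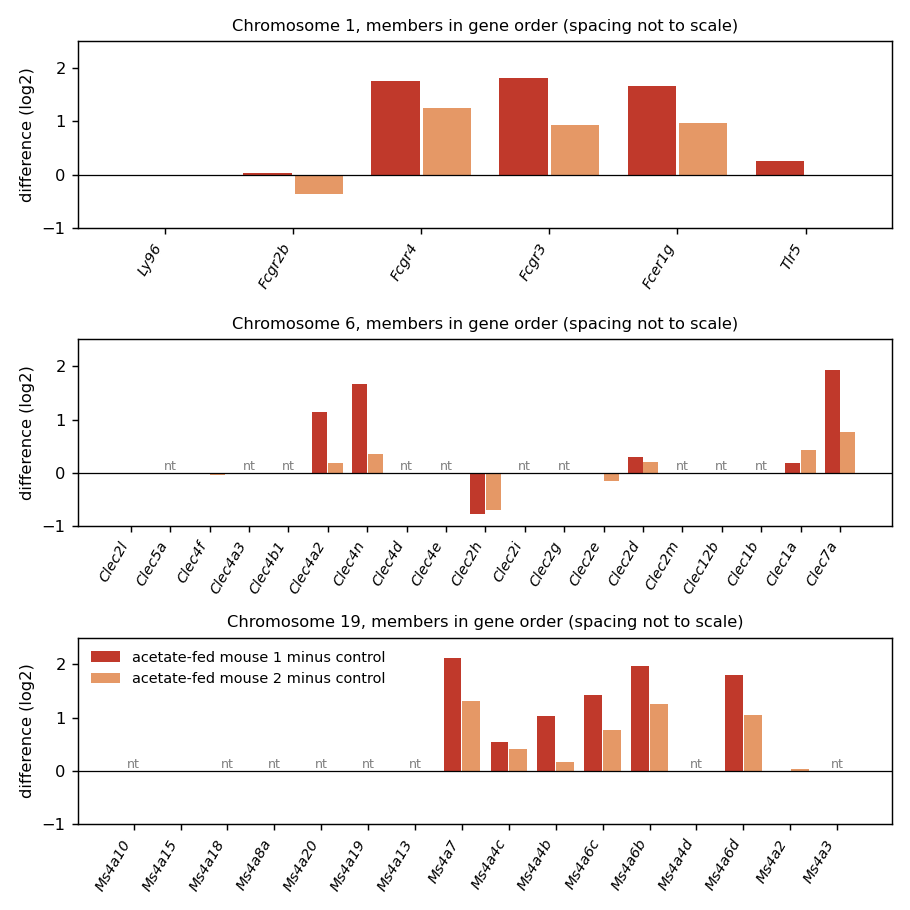
Difference from the control on the log2 scale (vertical axis) for the member genes of chromosomes 1, 6 and 19 in RefSeq order, with bars for acetate-fed mouse 1 (red) and acetate-fed mouse 2 (orange); nt marks genes below the filter, and spacing is not to scale. On chromosome 19 the tall bars lie between Ms4a7 and Ms4a6d, on chromosome 1 they are those of Fcgr4, Fcgr3 and Fcer1g, and the bars past 1 on chromosome 6 are those of Clec4a2, Clec4n and Clec7a in mouse 1. Clec2h is below the control in both mice and Fcgr2b in mouse 2.

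Among 26 C-type lectin genes, 16 passed the filter. Of the 16, 7 were higher in both mice (26% of all tested genes) and 2 lower in both (30.9%). The same value on all 3 arrays was held by 3 of the 16 (17.9% of all tested genes). Clec7a encodes dectin-1, the receptor for fungal beta-glucan. It had 7.87 in acetate-fed mouse 1 and 6.71 in mouse 2 against 5.95 in the control, 3.79-fold and 1.69-fold higher, but its difference of 0.76 in mouse 2 was smaller than the gap of 1.16 between the mice. Clec4n, dectin-2, which binds fungal mannans and signals through the Fcer1g chain, had 5.43 and 4.11 against 3.76, 3.17-fold and 1.28-fold higher. A second Clec4n probe set, below the filter, had 4.83 in acetate-fed mouse 1, 3.61 in mouse 2 and 3.61 in the control.

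Clec4a2, an inhibitory receptor of dendritic cells and macrophages, had 5.14 and 4.17 in acetate-fed mice 1 and 2 against 3.997 in the control, 2.21-fold and 1.13-fold higher. A second Clec4a2 probe set, below the filter, had 3.91 on all 3 arrays. Below the filter, Clec4a3 had 4.53 and 3.79 in acetate-fed mice 1 and 2 against 3.15 in the control, 2.60-fold and 1.56-fold higher. Clec4d had 4.53 and 3.26 against 3.38, higher in mouse 1 only. Clec10a, a macrophage lectin for galactose-type sugars, had 5.23 and 4.99 in acetate-fed mice 1 and 2 against 4.64 in the control. Clec4f, a lectin of liver macrophages, had 5.17 and 5.13 against 5.17. Below the filter, Clec5a had 3.47 and 3.15 against 3.24, Clec4e had 2.86 and 2.73 against 2.86, and Clec4b1 and Clec12b were the same on all 3 arrays. Clec9a and Clec12a had no single-symbol probe set.

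The start region of Clec7a, at chr6:129472730-129473029, minus strand of GRCm38.p6, is shown because Clec7a had the largest lectin difference, again with GAGGAA in capitals, for the first of 2 entries.
Clec7a: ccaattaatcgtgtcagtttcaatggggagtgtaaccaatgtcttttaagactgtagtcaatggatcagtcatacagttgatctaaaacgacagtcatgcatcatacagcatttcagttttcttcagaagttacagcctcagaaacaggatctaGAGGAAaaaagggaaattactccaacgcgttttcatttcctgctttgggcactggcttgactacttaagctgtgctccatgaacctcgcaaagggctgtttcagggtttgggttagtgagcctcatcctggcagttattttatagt
The capitals begin 96 bases before its start. Over the families, 80 of the 97 genes had a start region in the table, and GAGGAA occurred in 38 of the 80 (47.5%), against 31.3% of all 27025 genes in it. Among the tested genes at least 1.5-fold higher in both mice it occurred in 5 of 9 (55.6%), and among the other tested members in 18 of 34 (52.9%). The AP-1 letters TGACTCA occurred in 10 of the 80 genes (12.5%), against 5.95% of all genes. They occurred in 0 of the 9 genes at least 1.5-fold higher in both mice and in 4 of the 34 other tested members (11.8%). A consensus NF-kappaB motif of 10 letters occurred in 0 of the 80, against 0.174%. These letter matches on both strands describe the windows and do not show binding.

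Clec2h and Clec3b were the 2 tested lectin genes lower in both mice. Clec2h, a C-type lectin-like ligand for receptors of natural killer cells, had 9.55 in acetate-fed mouse 1 and 9.63 in mouse 2 against 10.32 in the control, 1.71-fold and 1.61-fold lower. All 3 Clec2h probe sets were lower in both mice, by between -0.78 and -0.60 in mouse 1 and between -0.69 and -0.46 in mouse 2. Clec3b, the secreted plasminogen-binding protein tetranectin, had 5.31 and 5.19 against 5.83, 1.44-fold and 1.56-fold lower.

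The endothelial Clec14a had 7.37 and 7.44 in acetate-fed mice 1 and 2 against 7.30 in the control, and Clec1a 5.60 and 5.83 against 5.41, 1.14-fold and 1.34-fold higher. Clec2d, the ligand of an inhibitory receptor of natural killer cells, had 8.67 and 8.59 against 8.38, 1.22-fold and 1.16-fold higher and by more than the gap of 0.079 between the mice. Clec2l, Clec4g and Clec11a had the same value on all 3 arrays.

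In the Toll-like receptor group the co-receptors Ly86 and Cd14 were higher in both mice, and among the receptors themselves Tlr2 in mouse 1 and Tlr12 in both mice differed most. Ly86 encodes MD-1, the partner of the Toll-like protein Cd180. It had 8.59 in acetate-fed mouse 1 and 7.82 in mouse 2 against 6.88 in the control, 3.27-fold and 1.92-fold higher. Cd14, which hands lipopolysaccharide to Tlr4, had 8.65 and 7.85 against 7.31, 2.53-fold and 1.46-fold higher, with a smaller difference (0.55) than the gap between the mice (0.80).

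Tlr4, the receptor for lipopolysaccharide, had 4.86 in both acetate-fed mice against 4.63 in the control, 1.18-fold higher. Its other probe sets, below the filter, had 4.27 and 4.07 against 4.07, 2.88 and 2.88 against 2.65, and 2.78 and 2.73 against 2.78. Ly96, which encodes MD-2, the partner of Tlr4, had 5.87 on all 3 arrays. Tlr2, the receptor for bacterial lipoproteins, had 5.81 in acetate-fed mouse 1 and 5.11 in mouse 2 against 5.05 in the control, 1.68-fold and 1.04-fold higher. Myd88, the adaptor shared by most Toll-like receptors, had 7.88 and 7.78 against 7.83.

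Receptors for nucleic acids differed less, and so did Tlr5. Tlr7, for single-stranded RNA, had 4.67 in acetate-fed mouse 1 and 4.50 in mouse 2 against 4.50 in the control. Below the filter, another Tlr7 probe set had 3.04 in both acetate-fed mice against 3.24, and a further one 3.03 on all 3 arrays. Tlr9, for unmethylated DNA, had 4.53 and 4.36 against 4.50. Tlr3, Tlr5 and Tlr8 differed by at most 0.26 in either mouse, and Tlr13 had 4.86 and 4.82 against 4.60. Tlr12, a mouse receptor for a protein of Toxoplasma, was lower, with 6.90 and 6.97 in acetate-fed mice 1 and 2 against 7.60 in the control (1.62-fold and 1.55-fold), but its other tested probe set had 5.42 on all 3 arrays. Tlr1 and Tlr6 were below the filter.

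**Figure D3:**
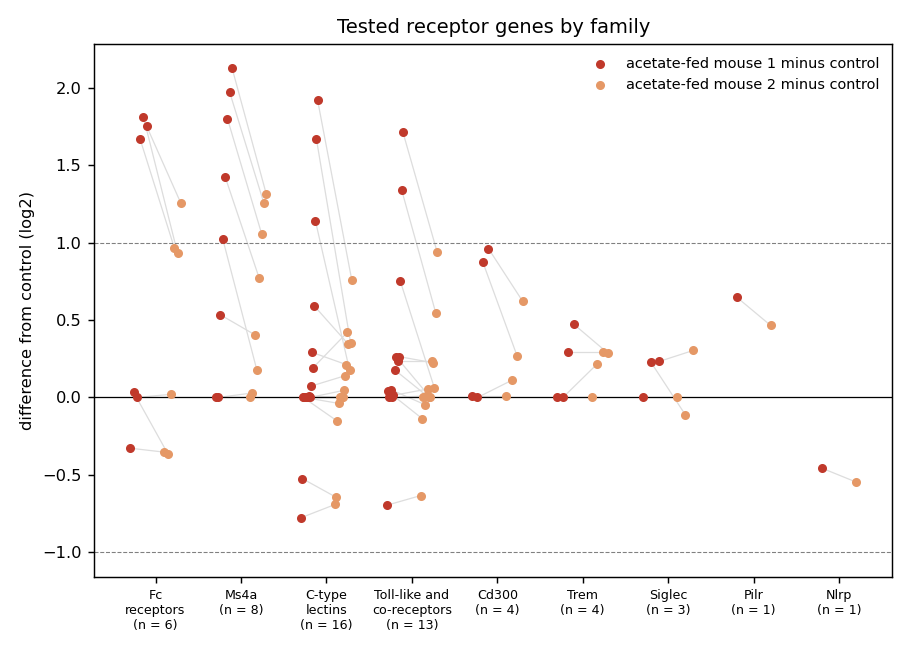
Difference from the control on the log2 scale (vertical axis) for the 56 tested receptor genes by family, with acetate-fed mouse 1 (red) to the left of acetate-fed mouse 2 (orange) and lines joining the same gene; dashed lines mark 2-fold. Points above the upper dashed line belong to the Fc receptor, Ms4a, C-type lectin and Toll-like co-receptor families, and no point lies below the lower one.

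The smaller receptor families differed by less than 2-fold. Cd300c2 had 6.97 in acetate-fed mouse 1 and 6.63 in mouse 2 against 6.01 in the control, 1.95-fold and 1.54-fold higher, and Cd300ld was 1.83-fold and 1.20-fold higher. Cd300lf and Cd300lg differed by at most 0.11. Pilrb1, an activating receptor that uses the adaptor Tyrobp, had 4.93 and 4.75 against 4.28, 1.57-fold and 1.38-fold higher, while its inhibitory counterpart Pilra was below the filter at 4.23 and 4.17 against 4.13.

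Trem2, a lipid-binding macrophage receptor, had 5.63 and 5.45 in acetate-fed mice 1 and 2 against 5.16 in the control on its brighter probe set, and 4.44 on all 3 arrays on the other. Treml1, a platelet receptor, had 4.86 in both acetate-fed mice against 4.57, Trem3 had 4.17 and 4.39 against 4.17, and Treml2 had 4.30 on all 3 arrays. Siglec1, the macrophage sialic acid receptor, had 5.52 on all 3 arrays. Siglecg was 1.18-fold and 1.23-fold higher, and Siglece differed by 0.23 in mouse 1 and -0.11 in mouse 2. Siglech, a marker of plasmacytoid dendritic cells, was below the filter at 4.17 on all 3 arrays.

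Of 15 Nlrp genes, Nlrp6 alone passed the filter. Nlrp6, an epithelial sensor protein, had 7.59 in acetate-fed mouse 1 and 7.50 in mouse 2 against 8.05 in the control, 1.37-fold and 1.46-fold lower. Nlrp3, the sensor of the macrophage inflammasome, was below the filter at 3.84 and 3.72 against 3.50. The others, most of them genes of the oocyte or germ line, were also below the filter.

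The 41 genes below the filter had 46 probe sets, with values between 2.38 and 4.53, and 21 of the 46 had the same value on all 3 arrays, against 45.9% of the 6327 probe sets of all genes below the filter. Of the 46, 10 were higher in both acetate-fed mice (background 12.6%) and 4 lower in both (background 17%). Clec4a3 and Clec4d were the 2 genes at least 2-fold higher in mouse 1 (background 0.158%), and 0 were so in mouse 2. Cd300a had 4.004 in both acetate-fed mice against 3.44 in the control on 1 probe set, and 2.79 against 2.87 on the other.

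The acetate-fed arrays could also be compared with each other, without the control. Acetate-fed mouse 1 was above acetate-fed mouse 2 at 34 of the 56 tested genes and below at 12, against 31.3% and 38.9% of all tested genes. At least 2-fold higher than the control in mouse 1 were 13 of the 56 (background 1.77%), and 4 of the 56 were in mouse 2 (background 0.601%). At least 2-fold lower were 0 in mouse 1 (background 0.601%) and 0 in mouse 2 (background 0.787%). At each of the 13, mouse 1 was above mouse 2, by between 0.50 for Fcgr4 and 1.32 for Clec4n. In these 13 genes, chosen for their size in mouse 1, the difference in mouse 2 was between 0.16 (Clec4a2) and 0.72 (Fcgr4) of that in mouse 1, with a median of 0.54.

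The planned limma test, with Benjamini-Hochberg adjustment over all 27022 tested probe sets, called 2 of the 56 genes higher and 0 lower, against 3.97% and 4.92% of tested genes; 10 of the 65 tested member probe sets had an unadjusted p under 0.05 (background 20%). Tlr4 and Treml1 rose by 0.23 and 0.29 (limma adjusted p = 0.00906 each), and the acetate-fed values of both were exactly tied. A dimmer probe set of Clec16a, also tied, fell by 0.054 (limma adjusted p = 0.0155), while the brighter one had 7.24 and 7.28 in acetate-fed mice 1 and 2 against 7.24 in the control. For the 13 genes at least 2-fold higher in mouse 1 the limma adjusted p lay between 0.39 and 0.87, and for the 5 lower in both mice between 0.11 and 0.27. When limma was run without the exactly tied pairs, it called 14 of 46 genes higher (background 6.14%) and Clec2h, Clec3b, Nlrp6 and Tlr12 lower (background 5.6%). The prior estimated across probe sets then carried 26.55 degrees of freedom, beside 1 from the acetate-fed pair. Leaving out tied pairs selects on the gap between the acetate-fed mice, which is also the error of the test. Clec4n and Ms4a6d, both called higher, had passed the filter through the acetate-fed arrays. The counts without tied pairs are therefore a description and no support. The 14 were Cd14, Cd300c2, Cd300ld, Clec4n, Clec7a, Fcer1g, Fcgr3, Fcgr4, Ly86, Ms4a6b, Ms4a6c, Ms4a6d, Ms4a7 and Pilrb1.

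Among signalling partners of the receptors, the adaptor Tyrobp and the kinase Syk were higher in both mice, and Irak2, Tirap, Tollip and Irak1 lower in both. Of 42 partner genes, 34 had a single-symbol probe set and 30 passed the filter; 0 were at least 2-fold from the control in both mice, 16 were higher and 4 lower in both (26% and 30.9% of all tested genes), and limma called Malt1 (0.036 higher, a tied pair; limma adjusted p = 0.029) where it called 3.97% of all tested genes higher. Tyrobp, the DAP12 adaptor of Trem and Pilrb receptors, had 9.35 in acetate-fed mouse 1 and 8.53 in mouse 2 against 7.66 in the control, 3.24-fold and 1.84-fold higher. Syk, the kinase that binds phosphorylated Fcer1g and Tyrobp, had 5.74 and 5.06 against 4.70, 2.07-fold and 1.29-fold higher. Over the 30, median differences were 0.13 (mouse 1) and 0.03 (mouse 2). In mice 1 and 2, Irak2 was 1.30-fold and 1.64-fold lower and Tirap 1.16-fold and 1.22-fold lower. Tollip was 1.17-fold and 1.09-fold lower, and Irak1 1.07-fold lower in both. Tyrobp, Syk and the 4 lower genes were named after their values were seen.

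Markers of macrophages moved with the receptor genes, and their part in the result was not tested. Of 9 macrophage markers, Itgam was below the filter. The 8 tested macrophage markers were all higher in both acetate-fed mice, where 26% of all tested genes were. Their mean level was 8.56 in acetate-fed mouse 1 and 7.85 in mouse 2 against 7.07 in the control. C1qa, C1qb and C1qc, the chains of complement C1q, were at least 2-fold higher in both mice (background 0.408%). The 5 tested neutrophil markers had a mean level of 5.81 and 5.08 against 4.65, with 3 higher in both, S100a8 being 6.49-fold and 1.91-fold higher, S100a9 4.90-fold and 1.96-fold and Csf3r 1.76-fold and 1.28-fold. The granule genes did not follow, with Ngp at 4.81 on all 3 arrays and Camp at 4.75 and 4.63 against 4.75. Of the 3 tested dendritic cell markers 2 were higher in both mice, with a mean level of 5.84 and 5.47 against 5.38, and Flt3 had 6.07 on all 3 arrays. Xcr1 and Ccr7 of the dendritic list and Cxcr2 and Mmp8 of the neutrophil list were below the filter. The neutrophil gene Ly6g had no single-symbol probe set.

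Markers of lymphocytes and mast cells were also read. Mean levels were 6.05 and 5.90 in acetate-fed mice 1 and 2 against 5.84 in the control for 4 tested T cell markers, 5.08 and 4.92 against 5.04 for 2 B cell markers, 4.63 and 4.65 against 4.65 for 2 natural killer cell markers, and 5.18 and 5.10 against 4.90 for 2 mast cell and basophil markers. Among these, Cd3d was 1.61-fold and 1.17-fold higher and Kit 1.49-fold and 1.33-fold higher. The other tested T cell markers, Cd3e, Cd4 and Cd8a, differed by at most 0.07 in either mouse. Tpsb2, the other tested mast cell and basophil marker, differed by -0.02 in both mice. Cpa3, Mcpt4, Cma1, Mcpt8 and Fcer1a of that list were below the filter. Platelet markers had 6.22 and 6.06 against 6.05 (3 genes). Of these, Pf4 differed by 0.79 in mouse 1 and -0.13 in mouse 2, Itga2b by -0.28 and 0.18, and Gp9 by 0 in both. Alas2, the 1 tested red blood cell marker, had 6.49 in acetate-fed mouse 1 and 8.37 in mouse 2 against 7.85 in the control. Endothelial markers had 8.75 and 8.64 against 8.28 (4 genes, all higher in both). The endothelial differences lay between 0.02 and 0.76 in mouse 1 and between 0.03 and 0.55 in mouse 2, smallest for Kdr. All 4 further kidney markers were higher in both acetate-fed mice, with Umod between 13.53 and 13.67 on the 3 arrays, Aqp2 of the collecting duct 1.42-fold and 2.18-fold higher and Slc12a1 of the thick ascending limb 1.41-fold and 1.64-fold higher. Proximal tubule markers had a mean of 12.21 and 12.12 against 12.45, all 4 lower in both acetate-fed mice. The part of these tubule differences in the receptor values was not tested.

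The control array also stood apart in fat genes, and what that contributes to the receptor differences was not tested. The adipocyte gene Adipoq had 4.38 in acetate-fed mouse 1 and 3.87 in mouse 2 against 9.98 in the control. All 3 tested adipose markers were at least 2-fold lower in both acetate-fed mice (background 0.46%). Every receptor difference from the control given above rests on that array.

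**Figure D4:**
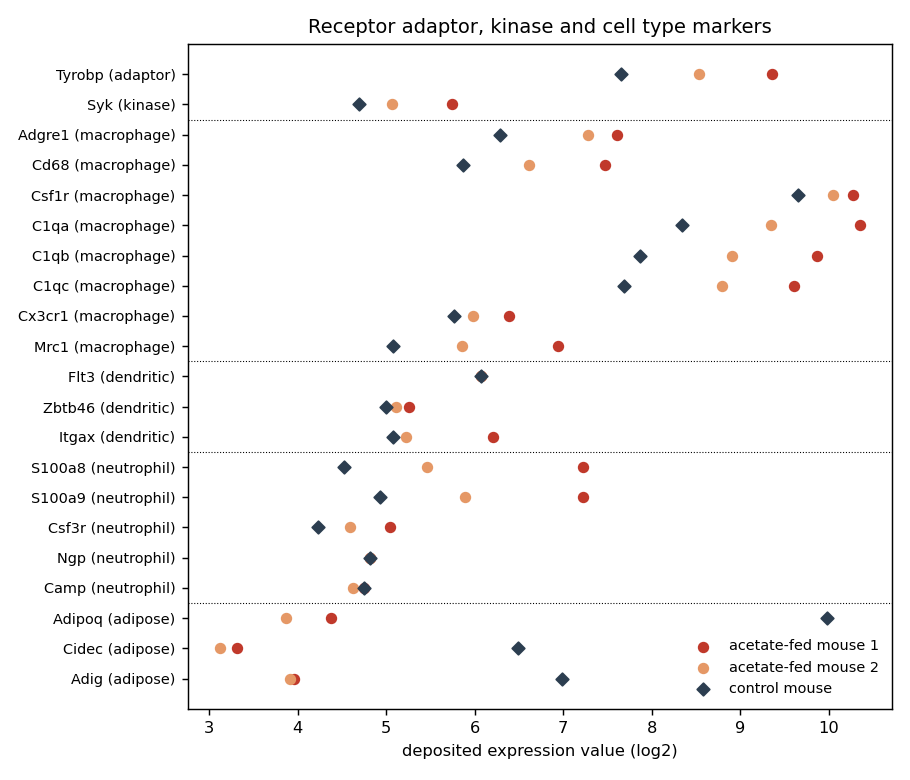
Deposited log2 expression (horizontal axis) of the adaptor Tyrobp, the kinase Syk and the tested macrophage, dendritic cell, neutrophil and adipose markers, 1 point per kidney. The control is the lowest point for all 8 macrophage markers and the highest for all 3 adipose markers, and Flt3 and Ngp coincide on all arrays.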

How the data were processed

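Kidney RNA was measured on single-colour Affymetrix arrays, per the labels. The deposited values, made by the authors, are log2 expression for 45101 probe sets, with array medians between 4.91 and 4.94. The submitters' processing notes name MAS5; its version and the normalization were not stated in the sources used here. Exactly the same value stands on both acetate-fed arrays at 44.9% of probe sets and on all 3 arrays at 30.0%. Values were used as deposited, and depth of signal over background is unknown without scanner files; the number of arrays limits the precision.

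Probe sets were named from the platform annotation (34945 with 1 gene symbol, 932 with several, 9160 not listed), and 34741 matched RefSeq by Entrez identifier; 64 control probe sets were left out. The upper 60% by mean (27022) were tested with limma 3.58.1 in R 4.3.3, lmFit and eBayes with an intensity trend, acetate minus control. Benjamini-Hochberg adjustment was at 0.05, with 1 residual degree of freedom. The single control array is taken to vary as the acetate-fed pair does. The p-values therefore set each difference against an error from the spread between those 2 acetate-fed arrays and a prior estimated across probe sets. Counts at 2-fold used no test. Alternatives were quantile normalization, centred arrays, other filters, a pseudocount, mean probe sets, a 1.5-fold threshold, tied pairs left out, no trend, and each acetate-fed mouse left out. Tables were made in Python 3.11.15 with pandas 2.3.3.

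The receptor genes and lists were chosen with earlier results of these data known. Named were members at least 2-fold from control in both mice or called by limma, up to 4 per family by size, and a fixed set of well-known receptors; Clec4a3, Clec4d and some others were added after their values were seen.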

Additional observations from a re-analysis of the deposited data

How the results depend on the processing

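The count of genes at least 2-fold higher in both mice (4) stayed at 4, with the same genes, after quantile normalization, with arrays centred on their medians, with no filter and with each gene as the mean of its tested probe sets. It was 3 in the upper 40% of probe sets, where Ms4a6d was not tested, and 2 (Ms4a6b and Ms4a7) with a pseudocount of 16; at 1.5-fold it was 10, with 2 lower (Clec2h and Tlr12). Leaving out 1 acetate-fed mouse gave between 4 and 13 higher by 2-fold, between 35 and 36 higher at any size and between 5 and 11 lower at any size. Genes lower in both mice numbered 17 after quantile normalization and 17 with centred arrays. Both scalings shift differences at or near 0, which include those of the 7 genes with the same value on all 3 arrays. Genes higher in both were 27 under each, and 12 of 24 tested in the upper 40%. The median difference in mouse 1 was 0.062 in the upper 40% of probe sets and 0.014 with no filter, where that in mouse 2 was 0.

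The limma calls of members (2 higher, 0 lower) rested on tied pairs. Over all 27022 tested probe sets limma called 1400 higher and 1446 lower. The members called were 0 higher after quantile normalization, with centred arrays or in the upper 40% of probe sets. In each of these settings limma called none of the probe sets it tested, with 4303, 4959 and 3513 at an unadjusted p under 0.05. Members called were 7 higher and 1 lower with no filter, and 14 higher and 4 lower with tied pairs left out. Fcgr1, Ly96, Siglec1, Cd300lf and Treml2 turned below 0 under both scalings, and Ms4a2 and Myd88 with centred arrays, all by less than 0.05. No paired analysis was possible because there is 1 control array, so fewer than 2 pairs could be formed, and its number only names the sample. The cause of these changes was not tested beyond the ties and the number of genes tested.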
